A study of Mus musculus with 2 samples.

Results

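Tissue inhibitors of metalloproteinases and the matrix-cleaving proteases they act on were followed across the cell classes of the neonatal mouse spinal cord. The set holds 9 of the 32285 genes counted, namely the inhibitors Timp1, Timp2, Timp3 and Timp4, the matrix metalloproteinases Mmp2, Mmp3, Mmp14 and Mmp15, and Adamts1, a protease of the related ADAMTS family. All 9 were found by their symbols, and none was lost to a filter, although Mmp3 gave too few UMIs outside fibroblast-like cells to be compared. They had been picked after their levels by cell class and their differences between the 2 libraries in these data were known, so the values below are a description and no test was made of them.

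Matrix metalloproteinases are zinc-dependent enzymes that cut collagens, laminins, proteoglycans and cell-surface proteins, and most are made as inactive precursors. The Timp proteins bind to the active enzymes and block them, and Timp2 together with Mmp14 on the cell surface also takes part in activating the Mmp2 precursor. In the central nervous system these genes are known from the meninges, the vessel wall, astrocytes and cells of the oligodendrocyte lineage, where the matrix is remodelled as the tissue grows and after injury.

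Whole spinal cords of FVB mice at postnatal day 4 had been dissociated with trypsin and collagenase II and sequenced by single-cell 3′ RNA-seq in 2 libraries. The library labelled SMA (spinal muscular atrophy) came from mice with the genotype mSmn-/-, hSMN22tg/0, which lack intact mouse Smn1, and the library labelled Con from mice with mSmn+/-, hSMN22tg/0, so both carried the human SMN2 transgene. Per the study's methods these were severe Taiwanese-model mice and heterozygous littermates, spinal cords were pooled within a library, and the sexes were not given. With 1 library a group there was no replicate, so a difference between libraries could not be set against a spread between animals, and every interval below is a 95% interval for counting error only.

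A unique molecular identifier (UMI) marks 1 captured RNA molecule, and the level of a gene is given as CPM, its UMIs scaled to a total of 1e+06 UMIs in a cell class and library. The SMA-labelled library held 26921 barcodes with 85872075 UMIs and the Con-labelled library 25419 barcodes with 97894084 UMIs, and 8163 barcodes stood in both lists. These barcodes were left out of the SMA-labelled library, which left 6787 of its cells and 8917 Con-labelled cells after filtering, with median depths of 6109 and 6229 UMIs. Among the 5843 Con-labelled cells of 5000 UMIs or more, 5771 carried such a shared barcode. Smn1 itself stood at 47.6 CPM in the SMA-labelled and 43.3 CPM in the Con-labelled library over all named cells, which goes against the labels if taken alone. Reads near the 3′ end need not cover the disrupted part of Smn1, and reads from the human transgene were not told apart, so the labels are used here as labels. Clusters were named from marker genes, and 11 classes had at least 50 cells in each library, the smallest being fibroblast-like cells with 63 and 601. Neuron-like, macrophage-like and monocyte-like cells fell below that number in a library and were not compared.

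Free RNA in the droplets can give UMIs of a gene in cells that do not express it, and erythroid-like cells were used as a view of that background. Timp4 stood at 43.9 CPM in SMA-labelled and 42.1 CPM in Con-labelled erythroid-like cells, and at 32.3 to 47.2 CPM in microglia-like, endothelial-like and Schwann-like cells. Levels of Timp4 near 40 CPM are therefore not read here as expression. These class levels are means over unlike clusters. Microglia-like cells held 25.5 and 25.8 CPM in cluster 3 but 161 and 126 CPM in cluster 9. Con-labelled erythroid-like cells held 38.7 CPM in cluster 4 and 75.7 CPM in cluster 28. A level near 40 CPM was not found in every class, as Timp4 stood at 14.7 CPM (10.5 to 19.9) in Con-labelled fibroblast-like cells, and at 2.21 CPM in the cluster of them numbered 21. SMA-labelled fibroblast-like cells stood at 70.2 CPM, where 27 of the 41 UMIs came from the 12 cells of their sub-cluster 7, described with the sub-clusters. The other genes were lower in erythroid-like cells, from 0 CPM for Mmp3 to 14.9 CPM for Timp3.

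The sequences just upstream of Timp1 and Mmp3 are shown because these are the 2 members whose UMIs sat almost wholly in Con-labelled fibroblast-like cells and in the same cluster of them. RefSeq promoter entries were matched for 8 of the 9 genes on GRCm38.p6, and the 250 bases before the start were searched on both strands for 3 motifs. The AP-1 letters TGANTCA occurred in 6.75% of the 32851 upstream windows of that length. The letters TATAAA, the core of many basal promoters, occurred in 12.4%. The ETS core AGGAAG occurred in 29.5%. The Timp1 window is chrX:20869916-20870165 and the Mmp3 window chr9:7445572-7445821, both on the plus strand, and capitals mark every match.
Timp1: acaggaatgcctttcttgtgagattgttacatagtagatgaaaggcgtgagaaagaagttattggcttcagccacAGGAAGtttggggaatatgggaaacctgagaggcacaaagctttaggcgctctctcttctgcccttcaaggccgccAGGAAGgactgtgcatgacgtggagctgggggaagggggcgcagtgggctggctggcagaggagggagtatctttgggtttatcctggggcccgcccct
Mmp3: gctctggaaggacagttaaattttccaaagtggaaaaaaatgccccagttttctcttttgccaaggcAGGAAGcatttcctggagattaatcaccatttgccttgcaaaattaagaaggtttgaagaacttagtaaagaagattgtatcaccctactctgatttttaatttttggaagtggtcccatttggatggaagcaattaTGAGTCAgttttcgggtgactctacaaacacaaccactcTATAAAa
Timp1 held the AGGAAG letters 2 times and neither of the others. Mmp3 held each of the 3 motifs 1 time, with TGAGTCA beginning 46 bases and TATAAA 7 bases before the start. Of the other matched members, Timp3, Timp4 and Mmp14 held AGGAAG, Adamts1 held TATAAA, and Timp2 and Mmp15 held none of the letters in this window. A match is a stretch of letters and says nothing about binding.

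The inhibitors differed in how they were spread over the cell classes. Timp1 (chromosome X, 20870166 to 20874735, GRCm38, GENCODE M21) was highest in fibroblast-like cells of both libraries, with 43 UMIs and 73.6 CPM in the SMA-labelled library and 9772 UMIs and 3500 CPM in the Con-labelled library. Endothelial-like, astrocyte-like and mural-like cells followed at 22.9 to 36.7 CPM, and in the SMA-labelled library the ratio of each of these 3 classes to the next had an interval that covered 0 on the log2 scale. In OPC-like, COP-like, microglia-like and erythroid-like cells Timp1 stayed at 0.245 to 1.20 CPM. OPC stands for oligodendrocyte precursor cells and COP for the committed precursors that follow them.

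Within the astrocyte-like cells Timp1 was uneven between clusters. It stood at 83.5 CPM in the SMA-labelled and 64.5 CPM in the Con-labelled cells of cluster 16, and at 18.9 and 11.3 CPM in cluster 2, the largest astrocyte-like cluster. Over all astrocyte-like cells Timp1 was at 33.0 CPM in the SMA-labelled and 27.3 CPM in the Con-labelled library, a log2 ratio (SMA-labelled over Con-labelled) of 0.27 with an interval of 0.02 to 0.52.

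Timp2 (chromosome 11, 118301069 to 118355740) was spread over many classes. Its level was 319 CPM in SMA-labelled and 343 CPM in Con-labelled microglia-like cells, 330 and 215 CPM in oligodendrocyte-like cells, and 210 and 374 CPM in fibroblast-like cells. Schwann-like cells, at 219 and 215 CPM, stood level with SMA-labelled fibroblast-like and Con-labelled oligodendrocyte-like cells, and ependymal-like cells held 180 and 199 CPM, while astrocyte-like and endothelial-like cells lay between 17.8 and 27.1 CPM. Of all Timp UMIs in microglia-like cells, 83.4% in the SMA-labelled and 86.7% in the Con-labelled library were Timp2, against 29.5% and 8.86% in fibroblast-like cells, where Timp3 led the SMA-labelled and Timp1 the Con-labelled library at 50.4% and 83.0%. UMIs of 3′ tags do not grow with transcript length, so such shares compare captured molecules.

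Timp3 (chromosome 10, 86300372 to 86349506), which stays bound to the matrix after secretion, led in fibroblast-like and astrocyte-like cells. It stood at 359 and 328 CPM in SMA-labelled and Con-labelled fibroblast-like cells, and at 272 and 301 CPM in astrocyte-like cells. The log2 ratio of fibroblast-like to astrocyte-like cells was 0.40 (0.19 to 0.61) in the SMA-labelled and 0.12 (0.01 to 0.23) in the Con-labelled library. Schwann-like cells held 223 and 249 CPM and mural-like cells 177 and 137 CPM. Timp3 was lowest in microglia-like, oligodendrocyte-like and erythroid-like cells, at 7.51 to 25.2 CPM. Endothelial-like cells held 120 CPM in the SMA-labelled and 64.4 CPM in the Con-labelled library, with no overlap of the intervals.

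Timp4 (chromosome 6, 115241892 to 115252205) was the astrocyte inhibitor. Astrocyte-like cells held 833 CPM in the SMA-labelled and 673 CPM in the Con-labelled library, COP-like cells 364 and 315 CPM, and ependymal-like cells 342 and 262 CPM. Astrocyte-like cells alone carried 61.4% of all Timp4 UMIs of named cells in the SMA-labelled library and 58.9% in the Con-labelled library. To compare cells of equal depth, each cell was thinned to 1000 UMIs. A Timp4 UMI was then found in 56.4% of SMA-labelled astrocyte-like cells (exact Clopper-Pearson interval 53.5 to 59.2) and in 49.2% of Con-labelled ones (46.6 to 51.8). The same share was 3.09% and 3.59% in erythroid-like cells and 3.53% and 4.23% in microglia-like cells. Without thinning the astrocyte-like shares were 96.7% and 93.4% at median depths of 5943.5 and 6056.5 UMIs, and the erythroid-like shares 24.4% and 23.4% at 9767 and 9861 UMIs.

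**Figure D1:**
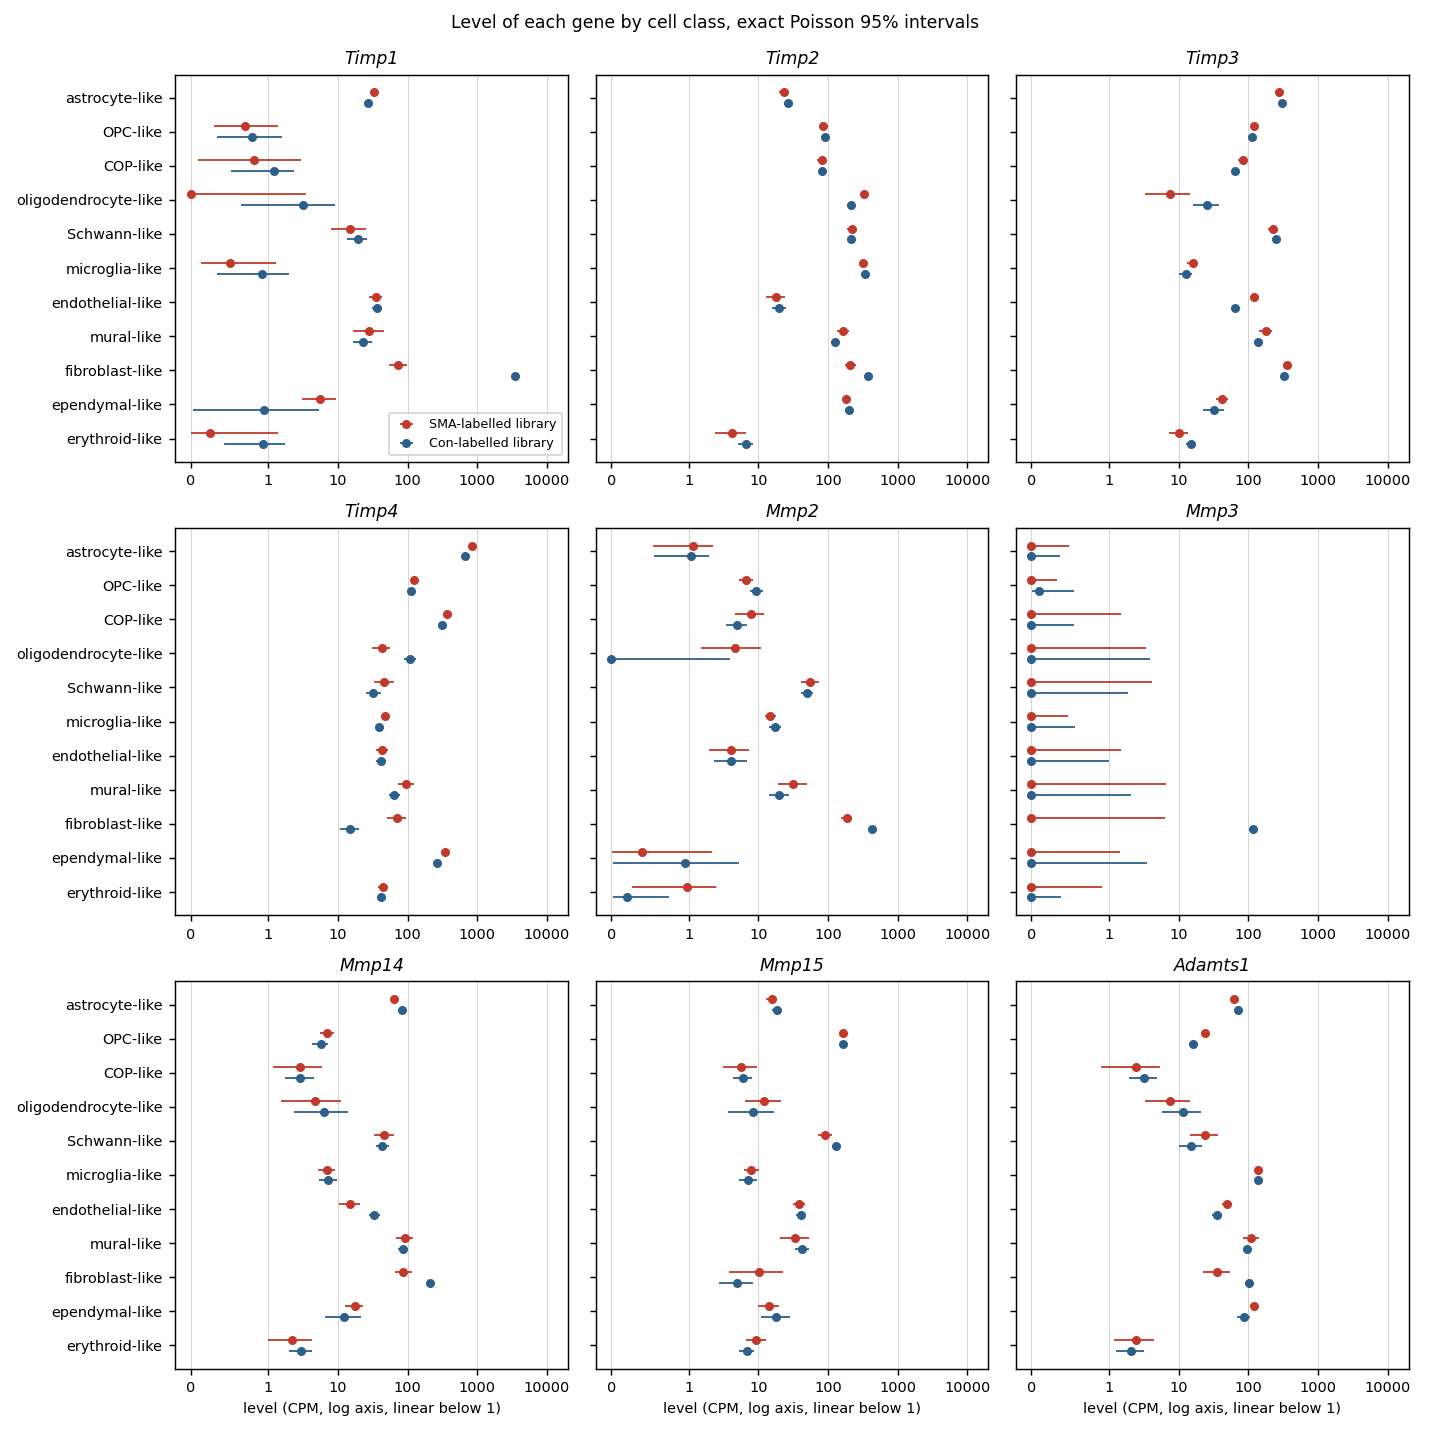
Level of each of the 9 genes (CPM, log axis that is linear below 1) in the 11 compared cell classes, red for the SMA-labelled and blue for the Con-labelled library, with bars for exact Poisson 95% intervals. Timp4 peaks in astrocyte-like cells at 833 and 673 CPM and Mmp15 in OPC-like cells at 163 and 164 CPM. Where both libraries hold UMIs, the widest ratio between them is that of Timp1 in fibroblast-like cells, 73.6 against 3500 CPM. Mmp3 stands at 0 against 119 CPM there.

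The proteases were divided among the classes in another way. Mmp2 (chromosome 8, 92827291 to 92853420), a gelatinase that cuts denatured collagen and basement membrane collagen, was a fibroblast-like gene at 185 CPM in the SMA-labelled and 423 CPM in the Con-labelled library. Schwann-like cells came next at 55.7 and 50.02 CPM, and mural-like cells held 31.9 and 20.1 CPM. Microglia-like cells held 14.98 and 17.4 CPM, against 0.981 and 0.206 CPM in erythroid-like cells, so this low level was above that of erythroid-like cells. In astrocyte-like and ependymal-like cells Mmp2 did not pass 1.17 CPM.

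Mmp3 (chromosome 9, 7445822 to 7455975), or stromelysin, which cuts many matrix proteins and can activate other metalloproteinases, was counted almost wholly in 1 class of 1 library. Con-labelled fibroblast-like cells held 331 UMIs or 119 CPM, and all other named Con-labelled cells together held 2 UMIs. In the SMA-labelled library no named cell held an Mmp3 UMI. With 3 UMIs in place of 0 in its 63 fibroblast-like cells, the level would be 23.1-fold lower than in the Con-labelled library. The exact interval of the log2 ratio lay below -4.22. All 331 UMIs lay in 1 cluster, numbered 21 and described below, which held 433 Con-labelled and 2 SMA-labelled cells. Without that cluster Mmp3 had 0 UMIs in the fibroblast-like cells of both libraries and could not be compared.

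Mmp14 (chromosome 14, 54431612 to 54445364) encodes the membrane-bound enzyme that activates the Mmp2 precursor. It stood at 87.3 CPM in SMA-labelled and 212 CPM in Con-labelled fibroblast-like cells, 92.2 and 86.1 CPM in mural-like cells, 63.4 and 82.4 CPM in astrocyte-like cells, and 46.6 and 43.5 CPM in Schwann-like cells. In the SMA-labelled library mural-like and fibroblast-like cells had a log2 ratio of 0.08 (-0.51 to 0.67), and fibroblast-like cells stood above astrocyte-like cells by 0.46 (0.02 to 0.88). In the Con-labelled library fibroblast-like cells stood above mural-like cells by 1.30 (1.04 to 1.57). Endothelial-like cells held 14.96 and 33.2 CPM. As astrocyte-like cells were numerous, they carried 56.0% of the Mmp14 UMIs of named SMA-labelled cells and 41.7% of those of named Con-labelled cells.

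Mmp15 (chromosome 8, 95352268 to 95375080), a second membrane-bound metalloproteinase, was led by the oligodendrocyte precursors. OPC-like cells held 163 and 164 CPM and carried 78.8% and 65.3% of its UMIs. The level was lower in the next stages of the lineage, at 5.75 and 6.02 CPM in COP-like cells and 12.2 and 8.42 CPM in oligodendrocyte-like cells. Erythroid-like cells held 9.32 and 6.90 CPM, but unevenly, with 2.48 and 1.36 CPM in their largest cluster, cluster 4. The 65 Con-labelled cells of erythroid-like cluster 28 held 61.2 CPM, so the class level is not a plain view of free RNA for Mmp15. Schwann-like cells were the other class with a high level, at 92.0 and 131 CPM, and endothelial-like and mural-like cells held 33.7 to 43.0 CPM. Timp4 went the other way within the lineage, with 122 and 111 CPM in OPC-like and 364 and 315 CPM in COP-like cells.

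Adamts1 (chromosome 16, 85793827 to 85803113), a secreted protease that cuts the proteoglycans aggrecan and versican, was highest in microglia-like cells, at 138 and 139 CPM. Ependymal-like cells held 123 and 86.6 CPM, mural-like cells 110 and 97.2 CPM, and fibroblast-like cells 35.9 and 101 CPM. In the SMA-labelled library the log2 ratio of microglia-like to ependymal-like cells was 0.17 (-0.01 to 0.36) and that of ependymal-like to mural-like cells 0.16 (-0.24 to 0.57), so both intervals covered 0. Astrocyte-like cells of cluster 16, which had the highest Timp1 among the astrocyte-like clusters, held 161 and 148 CPM of Adamts1, against 41.2 and 44.6 CPM in cluster 2.

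Between the libraries, the members differed mainly in fibroblast-like cells. A gene was counted as past the fold where the 2 libraries differed at least 2-fold and held 100 UMIs or more together in that class. In fibroblast-like cells 5 of the 7 members with enough UMIs were at least 2-fold lower in the SMA-labelled library, where 12.6% of all 4062 genes compared were lower by that much and 17.3% passed the fold in either direction. The median log2 ratio was -1.28 over the 7 members and -0.02 over all compared genes. These members were chosen with such differences known, so nothing is read from the count.

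**Figure D2:**
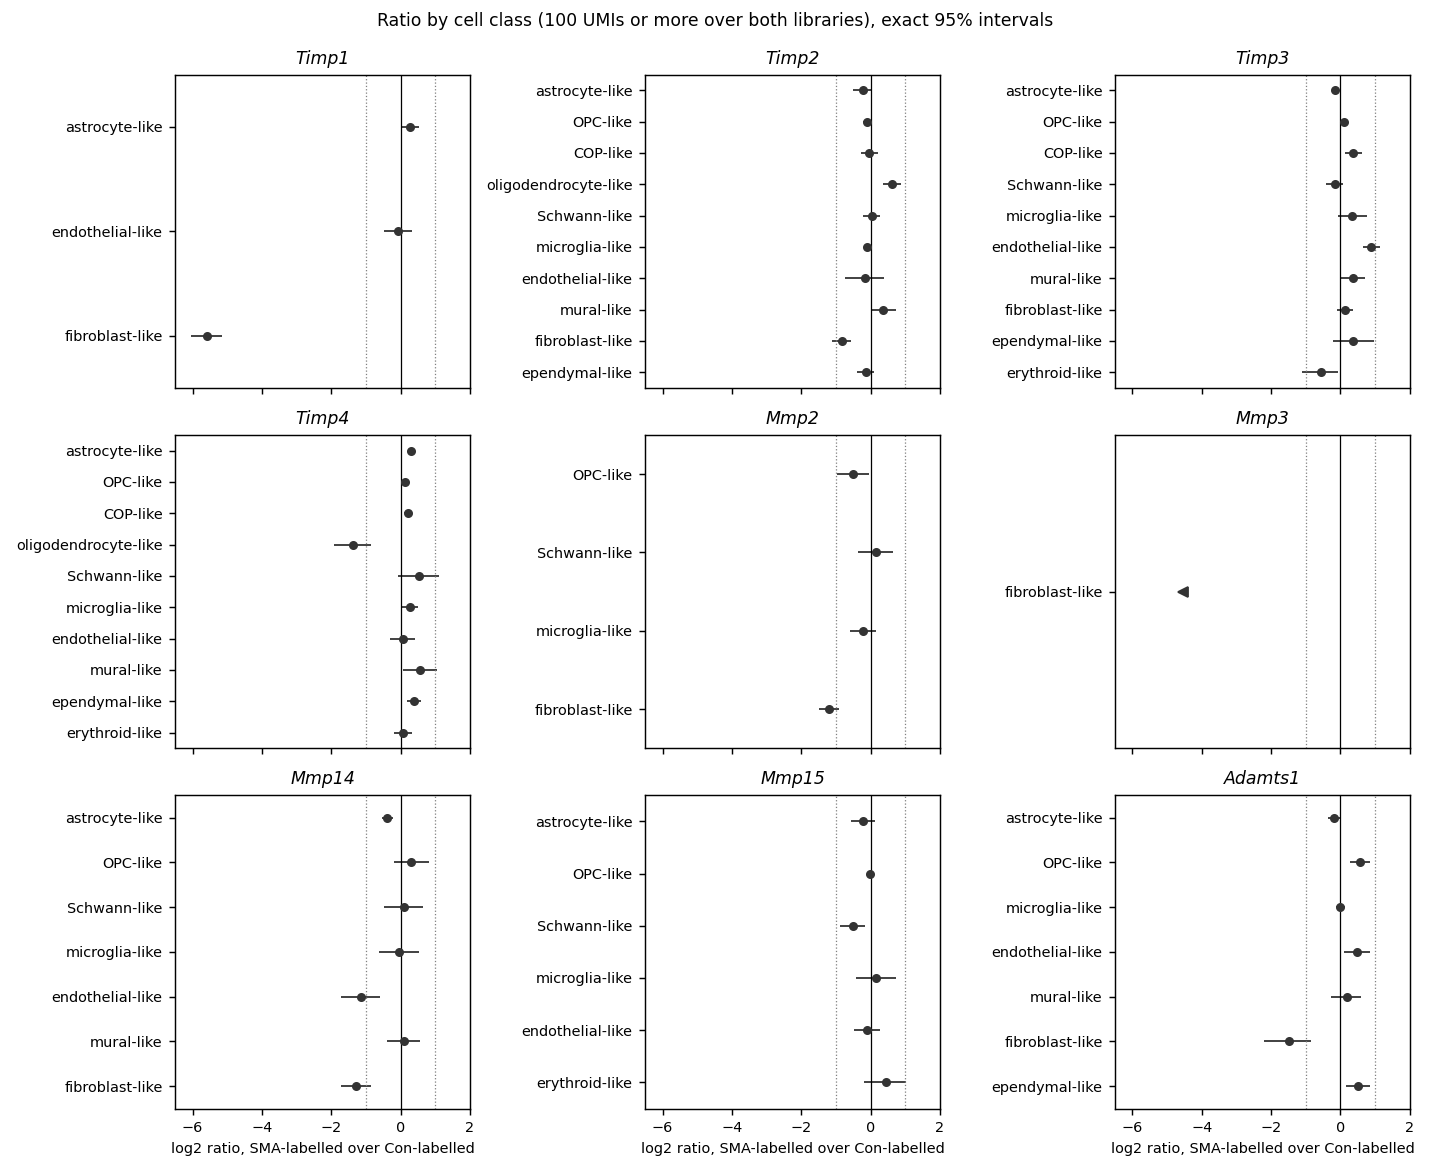
Log2 ratio (SMA-labelled over Con-labelled) of each gene in every compared class with 100 UMIs or more over both libraries, with exact conditional 95% intervals, a solid line at 0 and dotted lines at 2-fold. The triangle for Mmp3 is a bound computed from 3 UMIs, and the points past the dotted lines are Timp1, Mmp2, Mmp14 and Adamts1 in fibroblast-like cells, Timp4 in oligodendrocyte-like cells and Mmp14 in endothelial-like cells.

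Among the members with UMIs in both libraries Timp1 had the widest gap, with a log2 ratio of -5.57 (-6.04 to -5.14). Mmp3, with 0 against 331 UMIs, could not be ranked. Mmp2 stood at -1.19 (-1.49 to -0.91), Mmp14 at -1.28 (-1.72 to -0.87) and Adamts1 at -1.49 (-2.21 to -0.85). Timp2 was at -0.83 (-1.11 to -0.56), short of the fold, and the interval of Timp3 covered 0 at 0.13 (-0.09 to 0.35). The 2 libraries did not hold the same fibroblast-like cells, however. These were 0.928% of the SMA-labelled and 6.74% of the Con-labelled cells used.

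Fibroblast-like cells fell into 2 clusters. Cluster 21, led by Mfap5, Ptx3, Serpinb2, Igfbp6, C3 and Pi16, held 433 Con-labelled and 2 SMA-labelled cells, and cluster 22, led by Mfap4, Slc6a13, Igf2 and Col13a1, held 168 Con-labelled and 61 SMA-labelled cells. Of the 11 fibroblast markers, 10 were detected in cluster 21 and 11 in cluster 22, so both carried the markers of the class. Cluster 21 stood apart in its barcodes: only 2 of its 70 Con-labelled cells of 5000 UMIs or more carried a shared barcode, against 150 of 150 in cluster 22. It also had a lower median depth, 2804 against 8444 UMIs, and a lower median mitochondrial share, 2.09% against 6.27%. What sets these cells apart was not tested, so the members' ratios in fibroblast-like cells are given with and without cluster 21.

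Cluster 21 held 97.2% of the Timp1 UMIs of Con-labelled fibroblast-like cells, and all 331 Mmp3 UMIs. Its Timp1 level was 6993 CPM against 191 CPM in Con-labelled cells of cluster 22, and its Mmp3 level 244 CPM against 0. Mmp2 stood at 516 against 334 CPM and Timp2 at 546 against 210 CPM. Timp3 was lower in cluster 21, at 217 against 433 CPM, and Mmp14 hardly differed, at 208 against 216 CPM. A Timp1 UMI was seen in 352 of the 433 cells, with a median of 4 and a highest count of 364 in a cell, and an Mmp3 UMI in 113 cells.

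When the fibroblast-like cells were divided into 8 sub-clusters, Timp1 and Mmp3 largely shared sub-clusters but differed in the order of their levels. Sub-cluster 2, led by Serpinb2, Cxcl5, Nos2 and Inhba, held 157 Con-labelled cells and 8244 Timp1 UMIs, a level of 11418 CPM with a median of 33 UMIs a cell. Sub-cluster 5, led by Thbs4 and C1qtnf3, had 3206 CPM of Timp1 in 82 Con-labelled cells, and sub-cluster 1, led by Gda, Pcolce2 and Dmkn, had 1279 CPM in 190 Con-labelled cells. Mmp3 stood at 388 CPM in sub-cluster 1 and 229 CPM in sub-cluster 2, with 150 and 165 UMIs, in 30.0% and 31.2% of cells, at median depths of 1894 and 4471 UMIs. Of the 57 cells with an Mmp3 UMI in sub-cluster 1, 35 also held a Timp1 UMI, as did 49 of 49 in sub-cluster 2. Among all cells a Timp1 UMI was found in 126 of 190 in sub-cluster 1 and 156 of 157 in sub-cluster 2, so these overlaps lay near the general share. Among the Con-labelled sub-clusters Timp2 and Mmp2 were highest in sub-cluster 1 as well, at 1034 and 855 CPM, and Mmp14 was highest in sub-cluster 5, at 408 CPM. None of these 3 sub-clusters held an SMA-labelled cell.

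In sub-clusters 3 and 7, which held cells of both libraries, Timp1 was far lower. It stood at 76.5 CPM in the 35 SMA-labelled and 331 CPM in the 82 Con-labelled cells of sub-cluster 3, where 185 of the 221 Con-labelled UMIs came from 1 cell. Without that cell, left out after the values were seen, the Con-labelled level was 55.0 CPM and the log2 ratio 0.48 (-0.33 to 1.26). Sub-cluster 7, led by C130071C03Rik, Amer2, Slitrk2, Sox21 and Rfx4, which are not fibroblast markers, had Timp4 at 237 against 121 CPM, and what these cells are was not tested. In it Timp1 stood at 78.8 CPM in the 12 SMA-labelled and 80.3 CPM in the 22 Con-labelled cells. A median cell of sub-cluster 3 held 0 Timp1 UMIs in both libraries. Mmp14 stood at 98.8 against 219 CPM in sub-cluster 3, a log2 ratio of -1.15 (-1.76 to -0.58). Mmp2 stood at 255 against 259 CPM there, with a ratio of -0.02 (-0.43 to 0.37), and Adamts1 at 41.4 against 66.0 CPM, with 13 and 44 UMIs and a ratio of -0.67 (-1.69 to 0.25). Timp2 was higher in the SMA-labelled cells of this sub-cluster, at 229 against 132 CPM and 0.80 (0.33 to 1.26), and no Mmp3 UMI was seen.

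**Figure D3:**
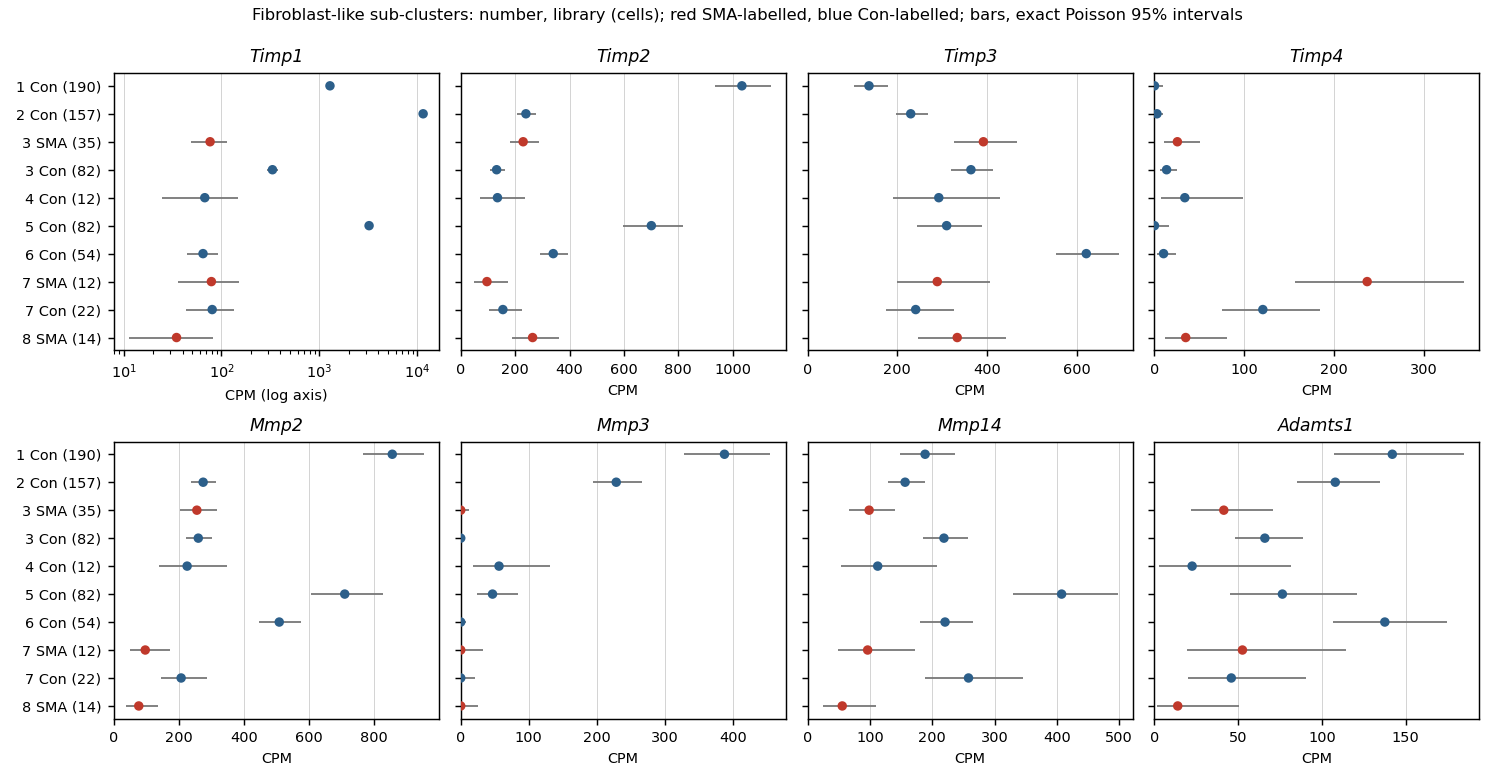
Level (CPM) of 8 of the genes in the fibroblast-like sub-clusters with at least 10 cells of a library, red for SMA-labelled and blue for Con-labelled cells, with exact Poisson 95% intervals; the Timp1 axis is logarithmic. The Con-labelled sub-clusters 2, 5 and 1 hold 11418, 3206 and 1279 CPM of Timp1, while every SMA-labelled point is below 80 CPM.

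Without cluster 21 the Timp1 gap shrank and then rested on 1 cell. The 61 SMA-labelled cells of cluster 22 held 43 Timp1 UMIs (75.5 CPM) and the 168 Con-labelled cells 274 (191 CPM), a log2 ratio of -1.34 (-1.84 to -0.87). Of the 274 UMIs, 185 came from 1 cell of sub-cluster 3, which also held 18 UMIs of Mfap5, the leading gene of cluster 21, and 33 of Mfap4 and 6 of Slc6a13, the leading genes of cluster 22, and no other cell held more than 4. With that cell left out as well, Con-labelled cells stood at 62.6 CPM and the log2 ratio was 0.27 (-0.29 to 0.81), so the interval covered 0. A Timp1 UMI was found in 44.3% of SMA-labelled and 33.3% of Con-labelled cells of cluster 22. Timp2 then differed by -0.11 (-0.43 to 0.21) and Timp3 by -0.32 (-0.56 to -0.08).

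Over the whole of cluster 22, whose sub-clusters were not evenly filled by the 2 libraries, Mmp14, Adamts1 and Mmp2 were lower in the SMA-labelled cells. Mmp14 had 50 UMIs (87.8 CPM) against 310 (216 CPM), a log2 ratio of -1.30 (-1.76 to -0.87), and was found in 47.5% against 73.2% of cells. Adamts1 had 19 UMIs (33.4 CPM) against 130 (90.7 CPM), a log2 ratio of -1.44 (-2.22 to -0.74). Mmp2 had 108 UMIs (190 CPM) against 479 (334 CPM), at -0.82 (-1.13 to -0.51). In no case did the richest Con-labelled cell hold more than 6.92% of the UMIs. Of the 2670 genes compared without cluster 21, 8.01% passed the fold in either direction, against 0.429% to 2.6% in the other classes. Where Con-labelled sub-clusters with under 2% SMA-labelled cells were left out instead, Mmp14 stood at -1.27 and Mmp2 at -0.40. Adamts1, at -0.88, had 21 and 63 UMIs and so fell below the minimum of 100. With shared barcodes kept over all fibroblast-like cells, Mmp14 was at -0.84 and no longer passed 2-fold.

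**Figure D4:**
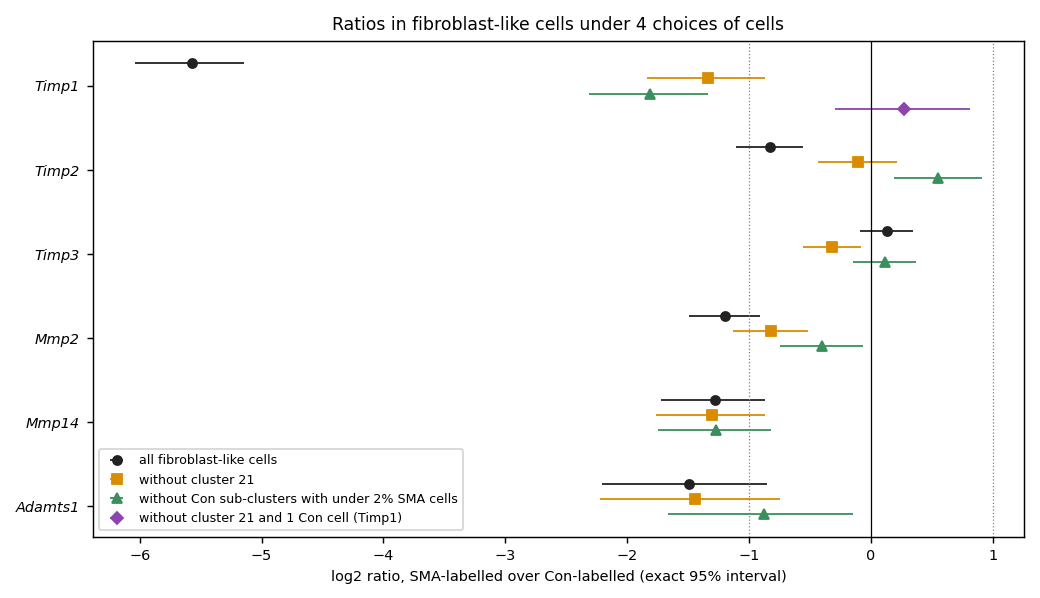
Log2 ratios (SMA-labelled over Con-labelled) with exact 95% intervals in fibroblast-like cells, for all cells, without cluster 21, without the Con-labelled sub-clusters with under 2% SMA-labelled cells, and, for Timp1, without cluster 21 and 1 further cell. Timp1 moves from -5.57 over -1.34 to 0.27, whereas Mmp14 is at -1.28, -1.30 and -1.27 under these choices.

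Genes of the immediate early response, which rise within minutes to hours of a stimulus including tissue dissociation, moved in the same direction in these cells. Their summed level was 2446 CPM in SMA-labelled and 6153 CPM in Con-labelled fibroblast-like cells, and 1491 against 5131 CPM within sub-cluster 3. In sub-cluster 7 the order was the other way, 6264 against 2732 CPM, while Mmp14 stood at 96.4 against 258 CPM there, with 11 and 45 UMIs. Of 10 such genes 8 were at least 2-fold lower in the SMA-labelled cells, and without cluster 21 the count was 5 of the 8 with enough UMIs. Over all compared genes, 12.6% were lower by that much, and 144 of 2670 without cluster 21. Egr1 stood at -2.04 (159 against 653 CPM), Dusp1 at -2.42 (111 against 596 CPM), Ier2 at -1.32 (224 against 559 CPM) and Junb at -1.21 (488 against 1129 CPM). Without cluster 21 these were -1.37, -1.34, -1.37 and -0.97, and the summed levels 2505 and 4936 CPM. Their part in the values of Mmp14, Mmp2 and Adamts1 was not tested. Haemoglobin genes differed too, at 452 CPM in SMA-labelled and 19677 CPM in Con-labelled fibroblast-like cells, and at 462 and 29474 CPM without cluster 21.

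Among endothelial-like cells, where 1.79% of 6194 genes passed the fold, 1 of 7 members did. Mmp14, which takes part in vessel sprouting, had 37 UMIs (14.96 CPM) in 327 SMA-labelled cells and 121 UMIs (33.2 CPM) in 447 Con-labelled cells, a log2 ratio of -1.15 (-1.72 to -0.61). It lay between -1.28 and -0.97 under 8 other settings, passing 2-fold in all but the setting that kept the shared barcodes. Both endothelial-like clusters went the same way, with 15.9 against 32.9 CPM in cluster 7 and 10.2 against 34.6 CPM in cluster 25. Timp3 was higher in the SMA-labelled cells, with 296 UMIs (120 CPM) against 235 (64.4 CPM), a log2 ratio of 0.89 (0.64 to 1.15) that did not reach 2-fold. It was higher in both clusters as well, at 106 against 58.8 CPM and 194 against 92.4 CPM. Adamts1 stood at 0.48 (0.11 to 0.85), while for Timp1, Timp2, Timp4 and Mmp15 the intervals covered 0. Of 9 immediate early genes compared in these cells 1 passed the fold, and their median log2 ratio was 0.51. The 1 gene was Hspa1a, a heat-shock gene of that list, at 1.17 (74.8 against 33.2 CPM). Haemoglobin genes took 11570 CPM of SMA-labelled and 34546 CPM of Con-labelled endothelial-like cells. The part of either in the members' ratios was not tested.

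In mural-like cells, the pericytes and smooth muscle of the vessel wall, none of 5 members passed the fold, against 2.6% of 3424 genes. All 5 ratios were above 0, with a median of 0.37, and the median over all compared genes was -0.02. The members were chosen with such differences known, so nothing is read from these signs. Timp2 stood at 0.37 (165 against 127 CPM), Timp3 at 0.37 (177 against 137 CPM) and Timp4 at 0.56 (95.8 against 64.8 CPM), with intervals above 0. Mmp14 at 0.10 and Adamts1 at 0.18 had intervals that covered 0. The mural-like level of fibroblast markers was 1206 CPM in the SMA-labelled and 778 CPM in the Con-labelled library. Of 9 immediate early genes compared there, none passed the fold, and their median log2 ratio was 0.39, with Egr1 at 0.76 and Fos at 0.59 but Dusp1 at -0.56. The part of either in these ratios was not tested.

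Astrocyte-like cells had no member past the fold, against 0.839% of 9887 genes, and their large counts gave narrow intervals. Timp4 was higher in the SMA-labelled library, with 6415 UMIs (833 CPM) against 6731 (673 CPM), a log2 ratio of 0.31 (0.26 to 0.36). The difference went the same way in each of the 3 astrocyte-like clusters, 940 against 813 CPM in cluster 2, 508 against 367 CPM in cluster 16 and 713 against 579 CPM in cluster 19. Mmp14 went the other way, with 488 UMIs (63.4 CPM) against 824 (82.4 CPM) and a log2 ratio of -0.38 (-0.54 to -0.22), also lower in all 3 clusters. Timp3 was at -0.15 and Adamts1 at -0.19, with intervals below 0, and the median over all genes was -0.07. Haemoglobin genes took 1469 CPM of SMA-labelled and 7423 CPM of Con-labelled astrocyte-like cells.

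Along the oligodendrocyte lineage the differences were small except in the last stage. None of 7 members passed the fold in OPC-like cells, where 0.443% of 10837 genes did, and none of 3 in COP-like cells, where 0.593% of 7754 genes did. Mmp15 was the leading protease of OPC-like cells among the members only, as Mmp16 of the wider network stood higher there. Mmp15 had 1857 UMIs against 1652 and a log2 ratio of -0.01 (-0.11 to 0.09). A difference of more than 0.11 in either direction therefore lay outside its interval. Adamts1 stood at 0.56 (0.28 to 0.85) in OPC-like cells, where the immediate early genes Fos and Junb were also higher in the SMA-labelled library, at 1.04 and 1.08, and their part in the Adamts1 value was not tested. In COP-like cells Timp4 stood at 0.21 and Timp3 at 0.37, with intervals above 0, and the immediate early genes Fos at 1.15, Fosb at 1.14 and Egr1 at 1.44. The 2 COP-like clusters were unevenly filled, with 193 SMA-labelled and 399 Con-labelled cells in cluster 5 and 94 and 348 in cluster 11. Timp3 stood at 119 against 113 CPM in cluster 5 and at 34.9 against 26.2 CPM in cluster 11, with overlapping intervals in both, so its class ratio also holds that difference in make-up. Timp4 stood at 356 against 285 CPM and at 375 against 339 CPM. In oligodendrocyte-like cells 1 of 2 members passed the fold, against 2.15% of 2885 genes. Timp4 had 45 UMIs (42.2 CPM) in 104 SMA-labelled cells and 104 UMIs (109 CPM) in 181 Con-labelled cells, a log2 ratio of -1.37 (-1.91 to -0.86), with the SMA-labelled level close to that of erythroid-like cells. The 2 groups of cells differed in median depth, 11793 against 2381 UMIs, and over cells with at least 5000 UMIs the ratio was -1.72 (-2.39 to -1.09). It was -1.25 with shared barcodes kept and between -0.69 and -0.49 under 4 settings that changed the filter, the clustering or the weight of the cells. Timp2 stood at 0.62 (0.37 to 0.88), with 330 against 215 CPM, and Junb at 1.06.

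In microglia-like cells none of 7 members passed the fold, against 0.667% of 8546 genes. Timp2 had 2513 UMIs (319 CPM) against 2234 (343 CPM), a log2 ratio of -0.11 (-0.19 to -0.02), and Adamts1 1087 (138 CPM) against 902 (139 CPM), at -0.01 (-0.14 to 0.12). Schwann-like cells had none of 6 members past the fold, against 2.32% of 3539 genes. Their Mmp15 was at 92.0 CPM in 91 SMA-labelled and 131 CPM in 223 Con-labelled cells, a log2 ratio of -0.51 (-0.89 to -0.15). Ependymal-like cells had none of 4, against 0.429% of 4891 genes, with Timp4 at 0.39 (0.19 to 0.59) and Adamts1 at 0.50 (0.16 to 0.85). Erythroid-like cells had none of 3, against 2.08% of 2498 genes. Their Timp4 ratio was 0.06 (-0.20 to 0.32), their Mmp15 ratio 0.43 (-0.18 to 1.03) and their Timp3 ratio -0.57 (-1.11 to -0.06), and the immediate early gene Dusp1 stood at -1.39.

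Over all named cells together, some ratios moved when fibroblast-like cells were left out. Timp1 stood at 10.46 CPM in the SMA-labelled and 182 CPM in the Con-labelled library, a log2 ratio of -4.12, and at -0.07 (-0.26 to 0.12) once fibroblast-like cells were left out. Mmp2 went from -1.51 to -0.04 (-0.26 to 0.17) in the same way. Mmp14 went from -0.76 to -0.39 (-0.52 to -0.26) and so stayed lower. Timp2 went from 0.10 to 0.26 and Adamts1 from 0.33 to 0.43. Leaving out erythroid-like cells instead moved these 2 the other way, to -0.01 (-0.07 to 0.04) and 0.21. In such sums, fewer cells of a type and less RNA per cell cannot be told apart.

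Of the genes of the wider protease network, most showed no 2-fold difference. Of 19 other matrix metalloproteinases, 18 were in the files and 8 had 100 UMIs or more over all named cells. Mmp16, a further membrane-bound enzyme, led in OPC-like cells at 186 and 181 CPM, as Mmp15 did. Mmp11 led in mural-like cells at 46.1 and 43.0 CPM, and Mmp23 in fibroblast-like cells at 169 and 308 CPM, or 170 and 186 CPM without cluster 21. None passed the fold in any class, although without cluster 21 Mmp11 and Mmp16 were lower in SMA-labelled fibroblast-like cells, at -1.11 and -1.95, 2 genes named after their values were seen.

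Of 25 other ADAM and ADAMTS proteases, 18 had 100 UMIs or more. Adamts4 led in oligodendrocyte-like cells at 300.4 and 303 CPM, Adamts20 in ependymal-like cells at 75.5 and 73.3 CPM, and Adam10, the main sheddase of Notch and of the amyloid precursor protein, in endothelial-like cells at 224 and 180 CPM. In fibroblast-like cells 3 of 8 were at least 2-fold lower in the SMA-labelled library, against the 12.6% given above. Adamts5 stood at -2.88 (13.7 against 101 CPM), Adamts2 at -1.07 (66.7 against 140 CPM) and Adam12 at -1.002 (24.0 against 48.0 CPM), named after their values were seen. Without cluster 21 Adamts5 and Adam12 had too few UMIs to compare, and Adamts2 was at -0.87. Adam10 was higher in SMA-labelled mural-like cells, at 1.07 (90.5 against 43.0 CPM), and no other gene of this list passed the fold in any class.

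Of 12 further regulators of proteolysis at the cell surface, all had 100 UMIs or more. Plaur, the urokinase receptor, had 0 UMIs in SMA-labelled and 111 in Con-labelled fibroblast-like cells, and 0 against 4 without cluster 21. With 3 UMIs in place of 0 it would be 7.74-fold lower over all SMA-labelled fibroblast-like cells. The exact interval of that log2 ratio lay below -2.63. Outside fibroblast-like cells Serpine2 passed the fold in oligodendrocyte-like cells, at -1.02 (180 against 366 CPM), and Plat in erythroid-like cells, at -1.42 (4.66 against 12.5 CPM).

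The genes whose levels over the cell classes were most like those of each member were found in the Con-labelled library, over its 13 classes with at least 50 cells, by Pearson's r of log2(CPM + 1), and the same r is given over the 11 classes of the SMA-labelled library. The classes share 1 library and its depth and free RNA, so these values are descriptions. For Timp1 these were Nox4, Lrrc17 and Mfap5, with r of 0.90 to 0.92 in the Con-labelled but 0.38 to 0.47 in the SMA-labelled library. For Mmp3 these were Dpt, Gm12840 and Sidt1, with r of 0.98 to 1.00, and no r could be formed in the SMA-labelled library. For Mmp2 these were Col6a3, Col15a1 and Lypd6, with r of 0.89 to 0.93 and 0.81 to 0.92. For Mmp14 these were Cyth3, Rom1 and Pdlim7, at 0.91 to 0.94 and 0.87 to 0.89. Timp4 was most like 3110082J24Rik, Adhfe1 and 1500009C09Rik, at 0.94 to 0.97 and 0.83 to 0.91, and Adamts1 most like Pros1, Lrp5 and Eif2ak2, at 0.89 to 0.92 and 0.77 to 0.89. Timp3 was most like Nr1d1, Selenom and Rab34, at 0.92 to 0.93 and 0.45 to 0.89. The lowest likeness was that of Timp2, with Gabarap, Lncpint and Otulin at 0.85 to 0.86 and 0.38 to 0.85, and of Mmp15, with Fstl5, Hist1h1a and Aif1l at 0.83 to 0.91 and 0.32 to 0.76.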

How the data were processed

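The deposited tables are UMI counts of genes by barcodes. Per the file headers they come from Cell Ranger 4.0.0, which is not the version in the study's methods, and the submitters' processing notes name build mm10. The counts are raw, and the authors' cell filters had not been applied. Cells needed 200 to 4000 genes and less than 10% mitochondrial UMIs, and 1 cluster was removed for its ribosomal protein UMIs (median above 30%), which took 1339 Con-labelled and 0 SMA-labelled cells. The upper limit on genes was the only treatment of doublets. Counts were scaled to 10000 per cell, the 2000 most variable genes reduced to 30 principal components, and a graph of 20 neighbours divided by the Louvain method at resolution 1 (python-igraph 0.11.9). The 9 genes and the related lists were kept out of clustering. Of 30 clusters, 25 were named from fixed markers with "-like", and since names were rebuilt they may differ from the study's.

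UMIs were summed per class and library. Levels have exact Poisson intervals, shares Clopper-Pearson intervals and ratios exact conditional binomial intervals (scipy 1.17.1). Their code was checked on simulated Poisson and binomial counts. These hold no spread between cells, so the check does not show that the intervals are wide enough for real cells. The members, lists and markers were chosen with earlier results of these data known. Genes named outside the 9 were those of the related lists past the fold, at most 5 a class by UMIs, and the 3 most alike per member. Genes named for the class they led in, and Mmp11, Mmp16, Adamts2, Adamts5, Adam12 and Plaur in fibroblast-like cells, and the immediate early genes of mural-like cells, were chosen after their values were seen. Protein sequences were not analysed here. A gene of these lists is not reported here.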

Additional observations from a re-analysis of the deposited data

How the results depend on the processing

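Depth limited the comparison in small classes, such as the 63 SMA-labelled fibroblast-like cells with 43 Timp1 and 21 Adamts1 UMIs. With no replicate and no shared numbering, no paired analysis was possible because each group is 1 library. In its leading class, each member with a ratio was recomputed under 8 to 13 other settings, 77 values in all, of which 56 stayed within the interval of the value reported. The settings that left out cluster 21 or 1 further cell were chosen after seeing the data. Timp1 in fibroblast-like cells turned from -5.57 to 0.27 without cluster 21 and 1 Con-labelled cell, and to 0.18 without the Con-labelled sub-clusters with under 2% SMA-labelled cells and that cell. It was -1.34 without cluster 21 alone, -1.81 without those sub-clusters alone, -1.82 over cells with at least 5000 UMIs whose Con-labelled barcode was shared, and -0.82 over these without the 1 cell. These changes follow from the cells left out. The other fibroblast-like values moved as follows, and the cause was not tested. Over cells with at least 5000 UMIs, Timp2 was at 0.0062, Timp3 at -0.12 and Mmp2 at -0.73. Where the Con-labelled ones also had a shared barcode, these were 0.027, -0.29 and -0.83. Without those sub-clusters Timp2 was at 0.55 and Mmp2 at -0.40, and without cluster 21 the 3 genes stood at -0.11, -0.32 and -0.82. With each cell weighted equally Timp2 was at -1.50 and Timp3 at 0.41. Mmp14 was at -0.84 where shared barcodes were kept, which ended its 2-fold call. Timp4 in astrocyte-like cells was at 0.38 when centred on the median gene. No value for the 2 members that lead elsewhere, Mmp15 in OPC-like and Adamts1 in microglia-like cells, left its interval. In the other classes 384 of 394 values stayed within the interval, and none that passed the fold changed sign. A minimum of 50 or 300 UMIs in place of 100, or a 1.5-fold limit, changed the number of members past the fold by over 1.5 times in 4 of 33 counts, all in oligodendrocyte-like or endothelial-like cells, and took the fibroblast-like count from 5 to 6 at 50 UMIs and at 1.5-fold. At 50 UMIs the added member was Timp4, higher in the SMA-labelled library at 2.26 (1.60 to 2.92), with 41 UMIs in each library. At 1.5-fold it was Timp2, lower at -0.83. Over all named cells, 13 of 16 values left their interval when fibroblast-like or erythroid-like cells were left out.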
